A study of Homo sapiens with 12 samples.

Results

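Genes of cholesterol synthesis, sensing, intracellular transport, storage and efflux were examined in the Z-138 cell line. The line derives from mantle cell lymphoma, a malignancy of mature B cells. The list held 31 gene symbols, taken by symbol from the table of counts, and 30 of them had a row, of 13820 rows in all. All 30 passed the filter on low counts, among 12602 genes tested. CYP51A1, a sterol demethylase gene, was the exception, with no row by symbol or identifier. The 30 genes comprised 8 of the mevalonate arm, 10 of the steps between squalene and cholesterol, 4 that sense sterols or regulate synthesis, 5 of intracellular transport, storage and sterol binding, and 3 of the efflux type (ABCA1, ABCG1 and MYLIP) that the nuclear receptor LXR controls.

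The 12 libraries formed 4 groups of 3. Knockdown cells carried an shRNA against SMARCA4, the ATPase subunit of the SWI/SNF chromatin remodelling complex, and received 3 µM ibrutinib, a BTK inhibitor, together with 3 µM venetoclax, a BCL2 inhibitor. Control cells under drug carried a control shRNA and had the same 2 drugs at the same doses. The remaining 2 groups were knockdown cells in DMSO and control cells in DMSO, and all 4 groups were grown with doxycycline. No group had 1 drug alone, so the effects of ibrutinib and venetoclax cannot be told apart, and neither can the construct and the loss of SMARCA4. The sources used here give neither the time under drug nor whether the replicates were separate cultures. The p-values then rest only on the spread among the 3 libraries within each group, pooled over the 4 groups and drawn in part from all genes. This spread may be technical.

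Cells make cholesterol from acetyl-CoA through mevalonate, isoprenoids, squalene and lanosterol. When membrane sterol runs low, SCAP carries the transcription factor SREBP2 out of the endoplasmic reticulum to be cleaved, and INSIG proteins hold SCAP back when sterol is plentiful. SREBP2 binds promoters together with the factors NF-Y and SP1 and switches on synthesis and uptake genes, whereas LXR, activated by oxysterols, switches on exporters such as ABCA1 and ABCG1 and the ubiquitin ligase MYLIP, which degrades lipoprotein receptors.

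The promoters below are shown because the results set genes of the SREBP2 type against genes of the LXR type. Each is the 250 bases before a RefSeq transcript start on build GRCh38.p14, read 5′ to 3′ on the gene's strand. Where RefSeq lists several starts, as for HMGCS1 and DHCR7, the window with the most matches is given, and for DHCR7 it lies downstream of another listed start. Capitals mark TCACNCCAC, a sterol regulatory element as SREBP binds it, and CCAAT, the NF-Y box (ATTGG on the other strand). The SREBF2 window lies at chr22:41832855-41833104 on the plus strand, the HMGCS1 window at chr5:43313413-43313662 on the minus strand, and the MVK window at chr12:109573544-109573793 on the plus strand. The DHCR7 window lies at chr11:71448394-71448643 on the minus strand, the ABCA1 window at chr9:104928156-104928405 on the minus strand, and the MYLIP window at chr6:16128836-16129085 on the plus strand.
SREBF2: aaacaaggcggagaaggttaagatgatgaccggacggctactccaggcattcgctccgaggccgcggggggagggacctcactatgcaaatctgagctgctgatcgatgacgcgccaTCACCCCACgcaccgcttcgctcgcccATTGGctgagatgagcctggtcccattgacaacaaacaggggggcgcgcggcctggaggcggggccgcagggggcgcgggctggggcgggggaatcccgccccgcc
HMGCS1: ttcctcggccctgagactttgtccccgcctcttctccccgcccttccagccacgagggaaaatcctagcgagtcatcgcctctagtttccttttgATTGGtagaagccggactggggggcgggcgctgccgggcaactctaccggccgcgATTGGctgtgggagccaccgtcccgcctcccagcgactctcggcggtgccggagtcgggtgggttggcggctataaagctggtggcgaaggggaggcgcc
MVK: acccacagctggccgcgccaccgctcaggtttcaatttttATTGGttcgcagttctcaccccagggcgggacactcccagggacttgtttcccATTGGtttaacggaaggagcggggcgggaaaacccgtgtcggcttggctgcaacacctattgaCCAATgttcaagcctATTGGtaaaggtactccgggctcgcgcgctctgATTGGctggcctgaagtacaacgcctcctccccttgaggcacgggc
DHCR7: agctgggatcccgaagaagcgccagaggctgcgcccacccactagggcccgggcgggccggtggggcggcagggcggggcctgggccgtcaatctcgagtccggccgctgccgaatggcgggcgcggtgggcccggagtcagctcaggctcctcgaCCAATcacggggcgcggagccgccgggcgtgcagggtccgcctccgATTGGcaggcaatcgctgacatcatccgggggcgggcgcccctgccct
ABCA1: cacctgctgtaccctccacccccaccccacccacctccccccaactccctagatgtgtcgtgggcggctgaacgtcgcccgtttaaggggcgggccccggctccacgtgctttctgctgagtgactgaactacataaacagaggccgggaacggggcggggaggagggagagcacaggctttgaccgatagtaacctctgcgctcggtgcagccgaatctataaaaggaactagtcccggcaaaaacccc
MYLIP: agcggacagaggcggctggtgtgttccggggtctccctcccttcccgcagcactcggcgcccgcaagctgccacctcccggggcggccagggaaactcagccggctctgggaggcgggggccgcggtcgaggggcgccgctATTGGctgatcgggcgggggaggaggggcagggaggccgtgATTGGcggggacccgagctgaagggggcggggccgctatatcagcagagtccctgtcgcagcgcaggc

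In SREBF2 the sterol element began 133 bases before the start and the CCAAT box 106 bases before it. MVK held 5 CCAAT boxes, and HMGCS1, DHCR7 and MYLIP held 2 each. ABCA1 had no match to either motif. RefSeq windows were at hand for 27 of the 31 listed genes, and FDFT1, ACAT2, SQLE and ABCG1 had none. Outside the efflux group, 20 of 25 listed genes (80.0%) had CCAAT in at least 1 window on either strand, against 42.4% of 8469 tested genes and 37.0% of all 27305 genes with a window. GGGCGG, the GC box of SP1, was in 24 of 25 (96.0%), against 75.5% of tested genes and 46.2% of all genes. TCACNCCAC was in 1 of 25 (4.0%), SREBF2, against 1.24% of tested genes and 1.09% of all genes. Looser forms of this sterol element were not searched for, so the other windows are not shown to lack one. The DR4 element of LXR, searched as 2 copies of AGGTCA with 4 bases between them, matched in 0 of the 27 listed genes. It matched in 0 of 8469 tested genes and in 0.0183% of all genes. A search that matches so few genes cannot show whether listed genes hold looser forms of the element. The ABCA1 window above does hold a looser form on the other strand. It has 4 bases between its copies and a mismatch in each copy. How often such forms occur in other windows was not counted. Only 2 efflux genes had a window. The motifs were searched as exact letters on both strands, do not contain one another, and are descriptions of these windows alone.

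Libraries held 7279503 to 22528537 counts, and the deepest was replicate 3 of the knockdown cells in DMSO. SMARCA4 (ENSG00000127616) checked the labels. It had 166.5, 173.9 and 183.8 CPM (counts scaled for depth with TMM factors) in knockdown cells under drug, against 588, 599.5 and 642 CPM in control cells under drug. It had 177, 174 and 159 CPM in knockdown cells in DMSO, against 577, 598.5 and 555 CPM in control cells in DMSO. No knockdown library overlapped a control library, and SMARCA4 fell by 71.3% under drug and by 70.6% in DMSO. The cell line's own markers were present, with CCND1 and SOX11 summing to 3920 to 5230 CPM. Of 7 B cell markers, 5 had a row, and their summed level was 263 to 278 CPM in knockdown cells under drug, against 542 to 604 CPM in control cells under drug, and 243 to 250 CPM in knockdown cells in DMSO, against 495 to 526 CPM in control cells in DMSO. Of 7 T and NK cell markers, 3 had a row, summing to 1.75 to 3.54 CPM over the knockdown groups and 17.5 to 21.4 CPM over the control groups; of the fibroblast and epithelial markers only COL1A1 of 6 had one, and of the monocyte markers 0 of 5. The 18S and 28S ribosomal rows took 7.196% to 8.982% of counts in knockdown cells under drug, 10.2% to 10.8% in control cells under drug, 10.04% to 11.05% in knockdown cells in DMSO, and 8.859% to 9.474% in control cells in DMSO. These shares and marker levels moved with the groups. With the ribosomal rows taken out, 12 listed genes rose with knockdown under drug and 11 in DMSO, as with the rows kept. With the drugs, 9 rose in knockdown cells and 4 in control cells, also as with the rows kept. For the interaction, explained below, 1 higher and 2 lower of all tested genes became 0 and 0. Why the shares differed, and the part of the marker levels in the results below, was not tested. In bulk RNA, fewer cells of a type and less RNA per cell cannot be told apart.

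Enzyme genes such as HMGCS1, MVK, SQLE, MSMO1 and DHCR7 rose with SMARCA4 knockdown whether or not the drugs were present, and of the 3 efflux genes ABCG1 rose with it. In knockdown cells under drug against control cells under drug, 12 of the 30 genes rose, where 14.8% of all tested genes rose, and 0 fell, where 16.3% fell (edgeR quasi-likelihood test, Benjamini-Hochberg adjusted p below 0.05 over all tested genes). In knockdown cells in DMSO against control cells in DMSO, 11 rose, where 15.1% of all tested genes rose, and 2 fell, where 16.2% fell. At an unadjusted p under 0.05, 14 genes were higher and 0 lower under drug, where 2463 and 2629 of the 12602 tested genes were. In DMSO 12 were higher and 3 lower, where 2481 and 2593 of all tested genes were. DESeq2 and limma-voom also called 0 lower under drug. All 3 knockdown libraries stood above all 3 control libraries for 13 genes under drug and 14 in DMSO, where 19.8% and 21.4% of all tested genes did, and below them for 2 genes each, where 21.2% and 21.5% did. The median log2 fold change of the 30 genes was 0.181 under drug and 0.221 in DMSO, beside 0.002 and 0.004 over all tested genes. With library totals in place of TMM factors, the comparison under drug had 16 of the 30 genes higher, the additional ones being PMVK, HSD17B7, SCAP and NPC1, and 2691 of all tested genes higher with 1447 lower, against 1860 higher and 2059 lower with TMM.

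The drugs moved few genes, and synthesis genes were among them. In knockdown cells under drug against knockdown cells in DMSO, 9 of the 30 genes rose and 0 fell, where 0.738% of all tested genes rose and 0.548% fell. There DESeq2 called 7 of the 30 higher and limma-voom 9, where they called 75 and 98 of all tested genes higher, and both called 0 of the 30 lower. In control cells under drug against control cells in DMSO, 4 of the 30 rose and 0 fell, where 0.738% of all tested genes rose and 0.555% fell. The 4 were FDFT1, DHCR7, INSIG1 and SREBF2, and all 4 also rose in the knockdown cells, together with HMGCS1, MVK, SQLE, LSS and EBP. At an unadjusted p under 0.05, 13 genes were higher and 2 lower in knockdown cells, where 669 and 647 of the 12602 tested genes were. In control cells 8 were higher and 0 lower, where 670 and 596 of all tested genes were. All 3 libraries under drug stood above all 3 in DMSO for 12 genes in knockdown cells and 8 in control cells, where 7.76% and 7.38% of all tested genes did, and below them for 2 genes each, where 7.45% and 7.18% did. Median log2 fold changes of the 30 genes were 0.093 in knockdown cells and 0.102 in control cells, beside 0.001 and 0.002 over all tested genes. The knockdown and drug comparisons share groups of libraries, so their values are given side by side and not correlated.

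The enzyme genes summed to their highest level in knockdown cells under drug. The summed level of the 18 enzyme genes was 637 ± 9.22 CPM in knockdown cells under drug, 528 ± 14.3 CPM in control cells under drug, 502 ± 1.70 CPM in knockdown cells in DMSO and 451 ± 9.82 CPM in control cells in DMSO (SD, n = 3 each). All 3 libraries of knockdown cells under drug stood above the other 9 libraries for 9 of the 30 genes, where 2.61% of all tested genes showed this. They were HMGCS1, MVK, FDFT1, SQLE, LSS, MSMO1, DHCR7, INSIG1 and SREBF2. All 3 libraries of control cells in DMSO stood below the other 9 for 5 genes, where 2.2% of all tested genes showed this, namely HMGCS1, FDFT1, DHCR7, INSIG1 and SREBF2.

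**Figure D1:**
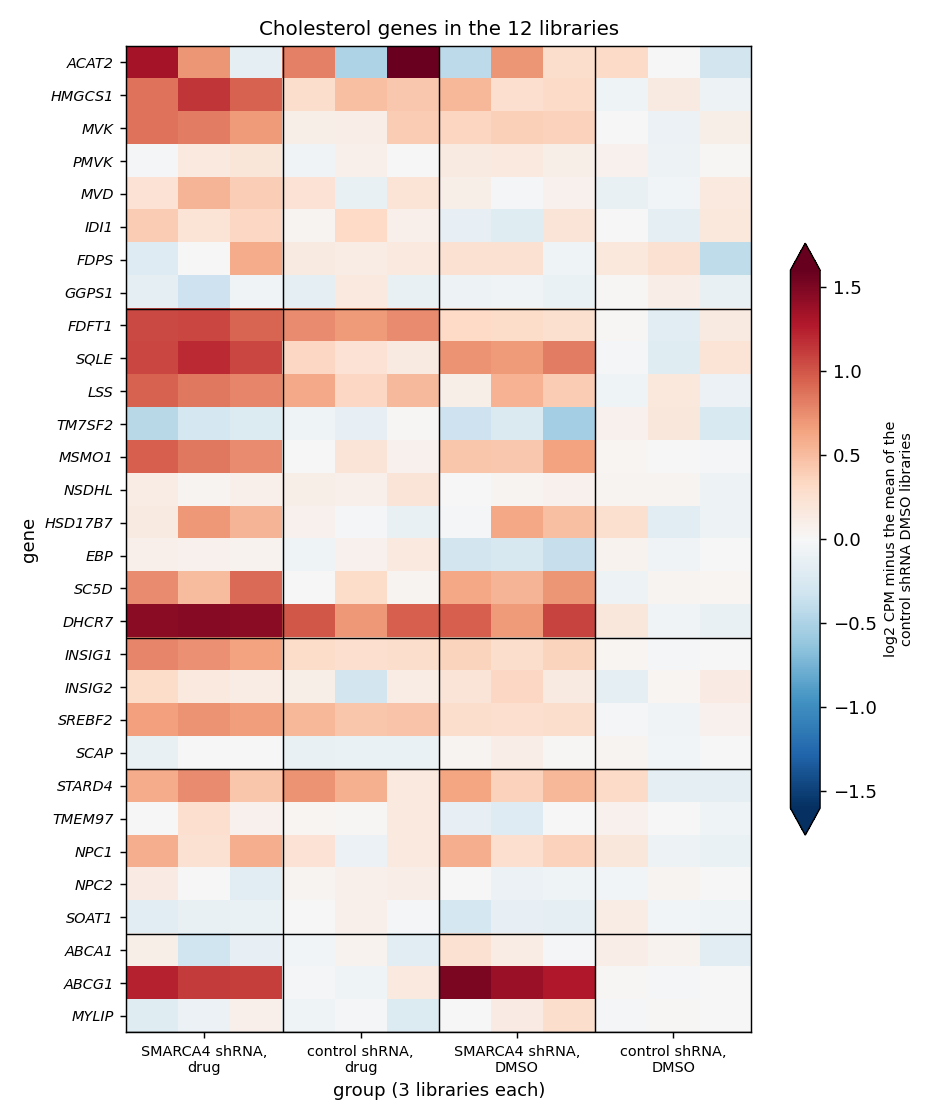
Log2 CPM of the 30 genes (rows, grouped by role) in the 12 libraries (columns, 3 per group), each minus the gene's mean over the control shRNA libraries in DMSO; red is higher and blue lower, and values run between -0.54 and 1.58. The 3 knockdown libraries under drug are highest for 9 genes, among them HMGCS1, FDFT1, SQLE and DHCR7, TM7SF2 is not among these, and ABCG1 is red in all 6 knockdown libraries.

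**Figure D2:**
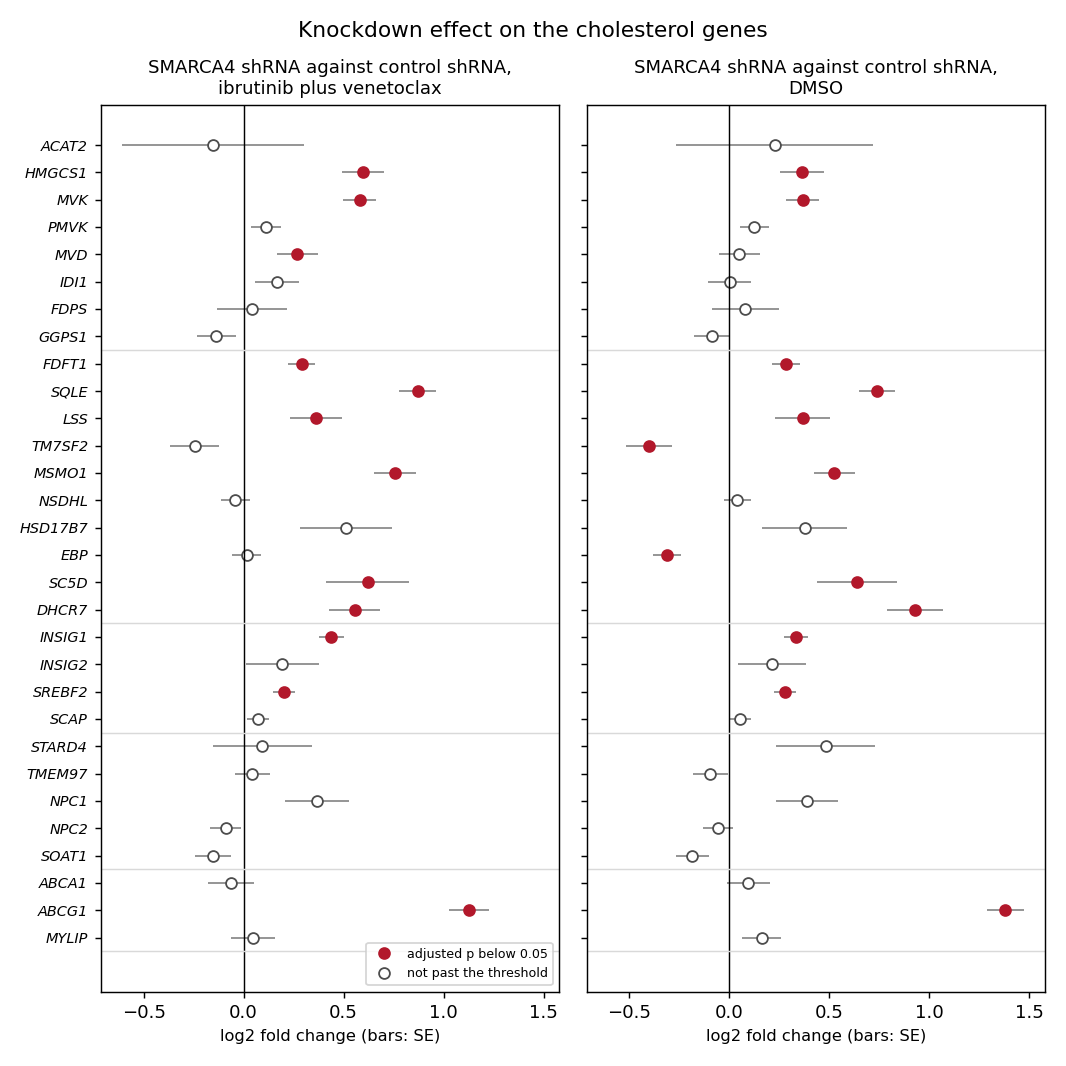
Log2 fold change (x axis) of each gene (y axis, grouped by role) for SMARCA4 shRNA against control shRNA, under ibrutinib plus venetoclax on the left and in DMSO on the right; bars are standard errors and filled points passed the adjusted threshold. ABCG1 lies farthest to the right in both panels, at 1.13 under drug and 1.38 in DMSO.

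**Figure D3:**
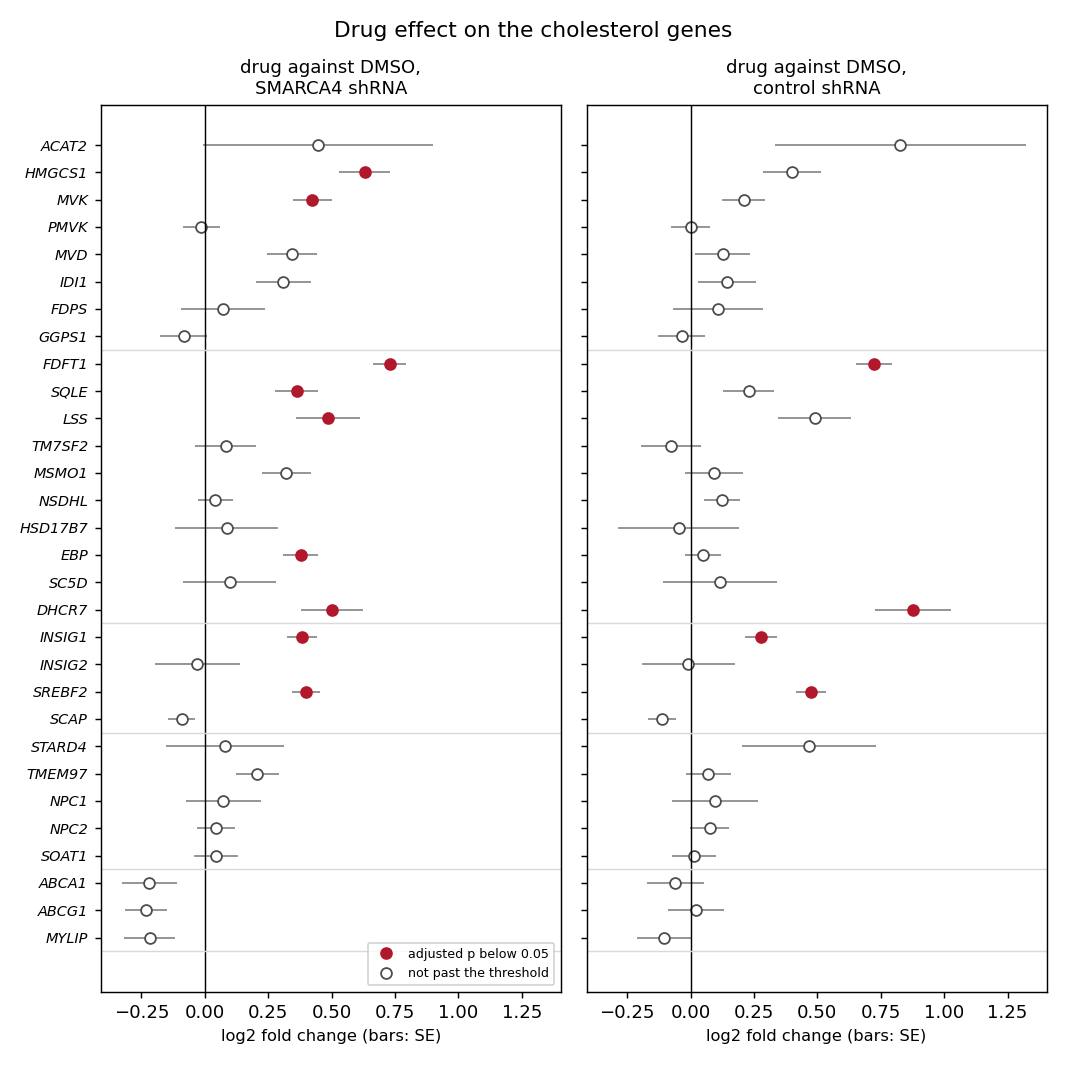
Log2 fold change (x axis) of each gene (y axis, grouped by role) for ibrutinib plus venetoclax against DMSO, in SMARCA4 shRNA cells on the left and control shRNA cells on the right; bars are standard errors and filled points passed the adjusted threshold. FDFT1 lies at 0.73 and 0.72, and the 3 efflux genes lie left of 0 in the SMARCA4 shRNA panel.

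In the mevalonate arm the genes that passed were HMGCS1, MVK and MVD. HMGCS1 (ENSG00000112972), the cytosolic HMG-CoA synthase that makes the substrate of the mevalonate-forming step, had 28.2, 34.1 and 29.6 CPM in knockdown cells under drug, 18.8, 21.4 and 20.8 CPM in control cells under drug, 22.2, 18.6 and 19.1 CPM in knockdown cells in DMSO, and 14.7, 17.0 and 14.6 CPM in control cells in DMSO. Knockdown cells under drug were highest and control cells in DMSO lowest, without overlap with any other group. Its knockdown effect on the log2 scale was 0.60 (SE 0.10, adjusted p = 4.47e-05) under drug and 0.36 (SE 0.11, adjusted p = 0.0107) in DMSO. The DMSO call was lost without replicate 1 of the knockdown cells in DMSO (0.29, adjusted p = 0.0629, with adjusted p between 0.00699 and 0.0629 over the 22 alternatives). The drug effect was 0.63 (SE 0.10, adjusted p = 0.00016) in knockdown cells and 0.40 (SE 0.11, adjusted p = 0.0923) in control cells, where the libraries did not overlap but the threshold was missed.

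MVK (ENSG00000110921), mevalonate kinase, had 75.9, 73.3 and 66.8 CPM in knockdown cells under drug, 44.3, 44.8 and 55.1 CPM in control cells under drug, 52.8, 54.2 and 53.8 CPM in knockdown cells in DMSO, and 41.4, 38.9 and 44.5 CPM in control cells in DMSO. Knockdown cells under drug stood above all other libraries, and replicate 3 of the control cells under drug reached the level of knockdown cells in DMSO. MVK rose with knockdown by 0.58 (log2; SE 0.08, adjusted p = 1.09e-06) under drug and by 0.37 (SE 0.08, adjusted p = 0.000637) in DMSO. The drugs raised it by 0.42 (SE 0.08, adjusted p = 0.00118) in knockdown cells, and the value in control cells was 0.21 (SE 0.08, adjusted p = 0.353).

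MVD (ENSG00000167508), which decarboxylates mevalonate diphosphate to the first isoprenoid, had 28.1, 34.9 and 31.4 CPM in knockdown cells under drug, 28.2, 22.1 and 27.9 CPM in control cells under drug, 25.6, 23.7 and 25.1 CPM in knockdown cells in DMSO, and 22.1, 23.2 and 26.7 CPM in control cells in DMSO. Knockdown cells under drug stood above both DMSO groups and overlapped the control cells under drug. It passed in 1 comparison, knockdown under drug, at 0.27 (SE 0.10, adjusted p = 0.0481). That call was lost when any of 6 libraries was left out, namely replicates 1 and 2 of the knockdown cells in DMSO, replicate 2 of the control cells in DMSO, replicates 2 and 3 of the knockdown cells under drug and replicate 2 of the control cells under drug, with log2 fold changes of 0.16 to 0.27. Over the 22 alternatives its adjusted p lay between 0.00907 and 0.287, and the call was also lost by DESeq2 (0.0838), by limma-voom (0.0519), in the fit of the compared groups alone (0.0593) and with the replicate block (0.0568). The drug effect was 0.34 (SE 0.10, adjusted p = 0.0936, between 0.0418 with library totals and 0.325 over the alternatives) in knockdown cells and 0.13 (SE 0.11, adjusted p = 0.781) in control cells.

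The other mevalonate genes did not pass in any comparison. PMVK, phosphomevalonate kinase, averaged 49.9 to 54.6 CPM per group, and IDI1, the isomerase that balances the first isoprenoids, averaged 22.3 to 28.3 CPM. FDPS, which makes farnesyl diphosphate, averaged 10.2 to 11.2 CPM, and GGPS1, which makes geranylgeranyl diphosphate, averaged 29.8 to 33.6 CPM. Over the 4 knockdown and drug comparisons their log2 fold changes lay between -0.14 (GGPS1, knockdown under drug) and 0.31 (IDI1, drug in knockdown cells, adjusted p = 0.214). IDI1 passed that comparison in 1 of the 22 alternatives, without replicate 3 of the knockdown cells in DMSO (0.48, adjusted p = 0.036, over a range of 0.036 to 0.581). ACAT2, the cytosolic acetoacetyl-CoA thiolase gene, had only 4 to 20 counts per library, too few to show a difference of the size seen in the other genes. On the GENCODE 29 annotation the last 500 bases of ACAT2, HMGCS1, IDI1, FDPS, LSS, TMEM97 and NPC1 overlap a gene on the opposite strand and those of GGPS1 a gene on the same strand. FDPS has 8 named pseudogenes there and HSD17B7 and TMEM97 have 2 each. No source used here gives the strand setting of the counting, so reads of such pairs cannot be told apart.

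Between squalene and cholesterol, SQLE, MSMO1, DHCR7 and SC5D had the largest knockdown effects among the genes that passed, and FDFT1 and DHCR7 passed with the drugs in both knockdown and control cells. FDFT1 (ENSG00000079459), squalene synthase, the first step committed to sterols, had 129, 131 and 119 CPM in knockdown cells under drug, 105, 99.97 and 105 CPM in control cells under drug, 77.9, 76.6 and 74.7 CPM in knockdown cells in DMSO, and 63.3, 55.7 and 68.8 CPM in control cells in DMSO. The 4 groups formed 4 separate bands, with both drug groups above both DMSO groups. FDFT1 rose with the drugs by a log2 value of 0.73 (SE 0.07, adjusted p = 5.85e-09) in knockdown cells and 0.72 (SE 0.07, adjusted p = 1.93e-08) in control cells. Its knockdown effects were 0.29 (SE 0.07, adjusted p = 0.000977) under drug and 0.28 (SE 0.07, adjusted p = 0.0018) in DMSO.

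SQLE (ENSG00000104549), squalene epoxidase, a rate-limiting oxygenase of the pathway, had 47.4, 51.8 and 47.2 CPM in knockdown cells under drug, 28.4, 26.6 and 24.9 CPM in control cells under drug, 37.2, 36.3 and 39.8 CPM in knockdown cells in DMSO, and 22.2, 19.7 and 26.4 CPM in control cells in DMSO. Here both knockdown groups stood above both control groups. The knockdown effect was 0.87 (SE 0.09, adjusted p = 6.2e-09) under drug and 0.74 (SE 0.09, adjusted p = 1.5e-07) in DMSO. The drug effect passed in knockdown cells at 0.36 (SE 0.08, adjusted p = 0.019) and was 0.23 (SE 0.10, adjusted p = 0.416) in control cells. In knockdown cells the drug call was lost without replicate 1 or 2 of the knockdown cells under drug or replicate 1 or 2 of the knockdown cells in DMSO (0.32 to 0.38, with adjusted p between 0.00778 and 0.103 over the 22 alternatives).

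DHCR7 (ENSG00000172893), the reductase that yields cholesterol in the last step, had 18.1, 18.1 and 18 CPM in knockdown cells under drug, 13.2, 10.7 and 12.9 CPM in control cells under drug, 12.9, 10.6 and 14.1 CPM in knockdown cells in DMSO, and 7.50, 6.40 and 6.09 CPM in control cells in DMSO. The 2 groups with 1 condition each overlapped throughout, between the group with both and the group with neither. DHCR7 rose with knockdown by a log2 value of 0.55 (SE 0.13, adjusted p = 0.00119) under drug and 0.93 (SE 0.14, adjusted p = 4.42e-06) in DMSO. The drugs raised it by 0.50 (SE 0.12, adjusted p = 0.0265) in knockdown cells and 0.88 (SE 0.15, adjusted p = 0.000443) in control cells. The call in knockdown cells was lost without any 1 of the 3 knockdown libraries under drug or without replicate 1 or 2 of the knockdown cells in DMSO (0.41 to 0.51) and by DESeq2 (adjusted p = 0.0661), and adjusted p lay between 0.0122 and 0.157 over the 22 alternatives.

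MSMO1 (ENSG00000052802), a methylsterol monooxygenase, had 29.1, 27.0 and 25.5 CPM in knockdown cells under drug, 15.04, 17.4 and 15.8 CPM in control cells under drug, 20.6, 20.3 and 23.5 CPM in knockdown cells in DMSO, and 15.4, 14.97 and 14.8 CPM in control cells in DMSO. The 2 control groups overlapped and both knockdown groups lay above them. MSMO1 rose with knockdown by a log2 value of 0.75 (SE 0.11, adjusted p = 1.19e-06) under drug and 0.53 (SE 0.10, adjusted p = 0.000163) in DMSO. Its drug effect was 0.32 (SE 0.10, adjusted p = 0.11) in knockdown cells, whose libraries did not overlap, and 0.09 (SE 0.11, adjusted p = 0.868) in control cells.

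LSS and SC5D are low genes that passed with less margin. LSS (ENSG00000160285), lanosterol synthase, had 17.3, 16.2 and 15.6 CPM in knockdown cells under drug, 13.8, 11.4 and 12.9 CPM in control cells under drug, 9.62, 13.2 and 11.97 CPM in knockdown cells in DMSO, and 8.6, 10.1 and 8.47 CPM in control cells in DMSO. Only the knockdown cells under drug stood clear of the rest. LSS rose with knockdown under drug (0.36, SE 0.13, adjusted p = 0.0338) and in DMSO (0.37, SE 0.14, adjusted p = 0.0388) and with the drugs in knockdown cells (0.49, SE 0.13, adjusted p = 0.0432), and the value in control cells was as large (0.49, SE 0.14, adjusted p = 0.0977). The knockdown call under drug was lost without replicates 1 or 2 of the knockdown cells under drug or 2 or 3 of the control cells under drug (0.29 to 0.38, adjusted p 0.0104 to 0.146 over the alternatives). The knockdown call in DMSO was lost without replicates 2 or 3 of the knockdown cells in DMSO or 1 or 3 of the control cells in DMSO (0.29 to 0.35, adjusted p 0.0129 to 0.145 over the alternatives). The drug call was lost without any 1 of the 3 knockdown libraries under drug, without replicate 2 of the control cells under drug, and without replicates 1 or 3 of the knockdown cells in DMSO (0.39 to 0.52, adjusted p 0.0247 to 0.242 over the alternatives). It was also lost with the deepest library thinned (0.45, adjusted p = 0.102), in the fit of the compared groups alone (adjusted p = 0.0584) and with the replicate block (adjusted p = 0.0623). The DESeq2 Wald test called none of the 3, with adjusted p = 0.0713 for knockdown under drug, 0.0846 for knockdown in DMSO and 0.101 for the drugs in knockdown cells.

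SC5D (ENSG00000109929), the sterol desaturase that acts just before DHCR7, had 5.51, 4.66 and 6.15 CPM in knockdown cells under drug, 3.26, 4.004 and 3.38 CPM in control cells under drug, 5.03, 4.78 and 5.32 CPM in knockdown cells in DMSO, and 3.10, 3.38 and 3.34 CPM in control cells in DMSO. All 6 knockdown libraries lay above all 6 control libraries. The knockdown effect was 0.62 (SE 0.21, adjusted p = 0.0222) under drug and 0.64 (SE 0.20, adjusted p = 0.0135) in DMSO, and the drug effects were 0.10 (SE 0.18) and 0.12 (SE 0.23) in knockdown and control cells. Under drug the knockdown call was lost without replicate 3 of the knockdown cells or replicates 1 or 3 of the control cells under drug (0.52 to 0.59, adjusted p 0.00973 to 0.105 over the alternatives), and by DESeq2 (adjusted p = 0.0624). In DMSO it was lost without replicate 3 of the knockdown cells (0.59, adjusted p = 0.0666) or replicate 1 of the control cells (0.61, adjusted p = 0.0537), over a range of 0.0082 to 0.0666.

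EBP and TM7SF2 were the 2 genes that fell with knockdown in DMSO. EBP (ENSG00000147155), a sterol isomerase, had 66.0, 65.2 and 64.5 CPM in knockdown cells under drug, 59.1, 65.1 and 69.5 CPM in control cells under drug, 50.9, 52.0 and 48.3 CPM in knockdown cells in DMSO, and 65.0, 60.02 and 61.8 CPM in control cells in DMSO. The knockdown cells in DMSO alone stood apart, below the other 3 groups. EBP fell by a log2 value of 0.31 with knockdown in DMSO (SE 0.07, adjusted p = 0.000737) and had 0.02 (SE 0.07, adjusted p = 0.9) under drug. The drugs raised it by 0.38 (SE 0.07, adjusted p = 0.00153) in knockdown cells, and the value in control cells was 0.05 (SE 0.07, adjusted p = 0.892).

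TM7SF2 (ENSG00000149809), a sterol reductase whose step LBR can also carry out, had 14.6, 16.4 and 17.1 CPM in knockdown cells under drug, 18.9, 18.1 and 20.1 CPM in control cells under drug, 15.8, 16.9 and 13.7 CPM in knockdown cells in DMSO, and 20.8, 22.5 and 16.8 CPM in control cells in DMSO. The DMSO groups overlapped in 1 library, and the drug groups did not overlap. The knockdown effect was -0.24 (SE 0.12, adjusted p = 0.135) under drug and passed in DMSO at -0.40 (SE 0.12, adjusted p = 0.00725). It was lost in DMSO without replicate 3 of the knockdown cells (-0.29, adjusted p = 0.108) or replicate 2 of the control cells (-0.32, adjusted p = 0.0671), over a range of 0.00165 to 0.108. NSDHL, which removes methyl groups from sterol precursors, averaged 47.0 to 51.2 CPM per group with log2 fold changes between -0.04 and 0.12. HSD17B7, the ketosterol reductase that follows it, averaged 3.62 to 5.14 CPM, and its knockdown values were 0.51 (SE 0.23, adjusted p = 0.0891) under drug and 0.38 (SE 0.21, adjusted p = 0.187) in DMSO. HSD17B7 passed under drug without replicate 1 of the knockdown cells under drug (0.65, adjusted p = 0.046) and with library totals (0.59, adjusted p = 0.0453), over a range of 0.0453 to 0.282.

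**Figure D4:**
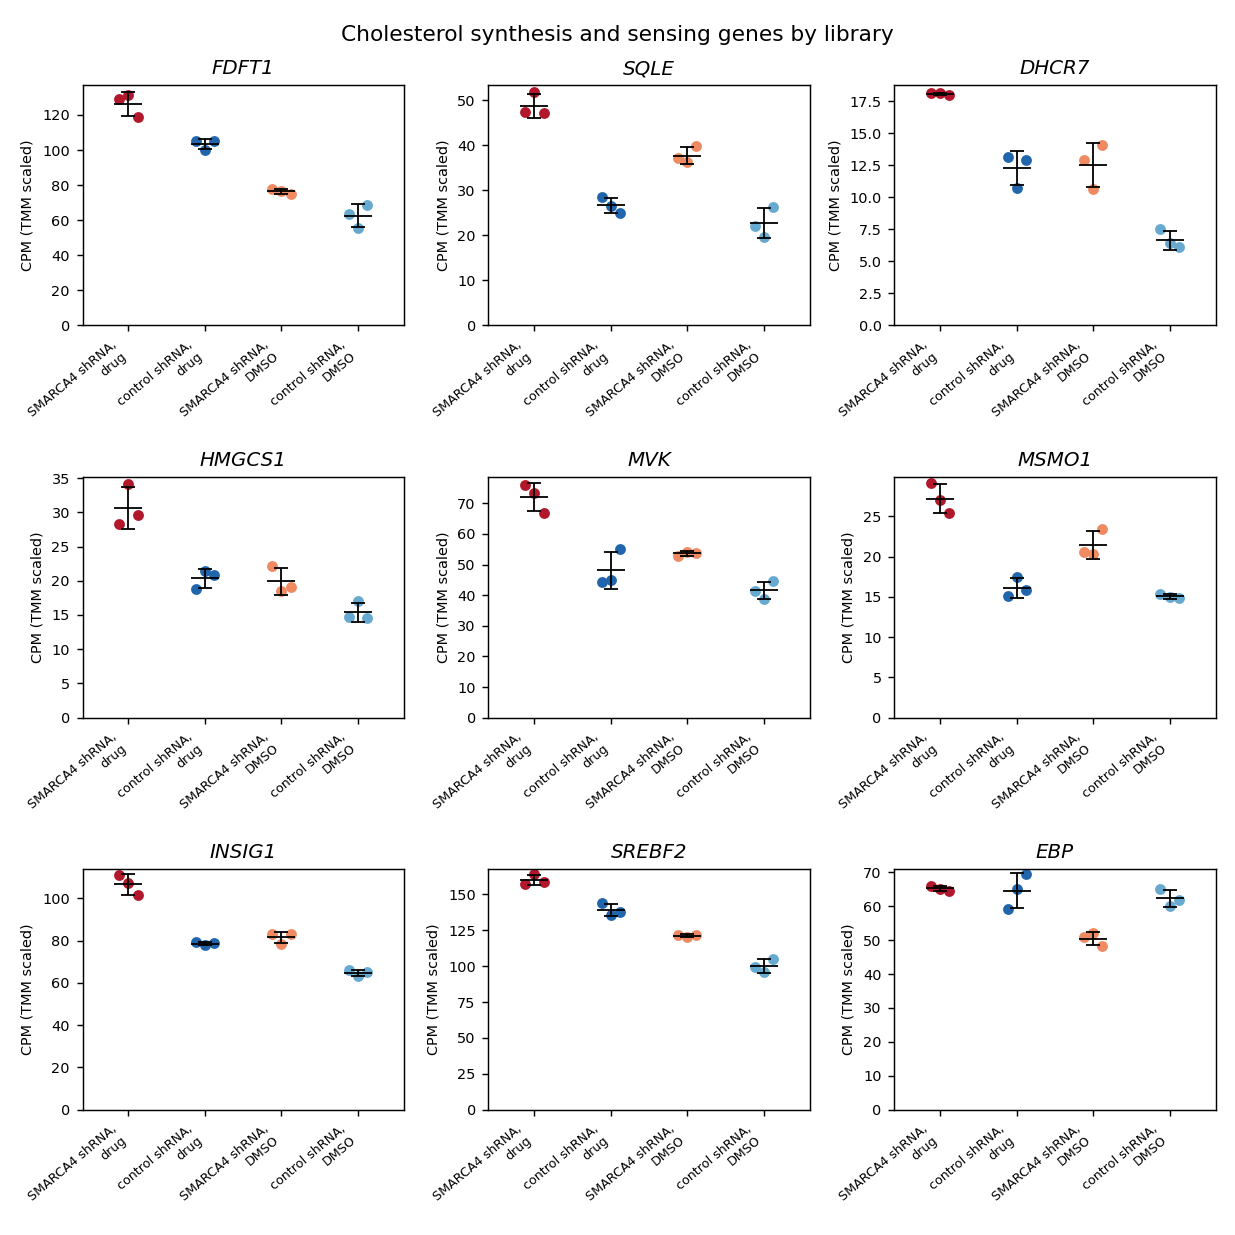
Level in CPM (y axis, from 0) of 9 synthesis and sensing genes in the 4 groups (x axis), with 1 point per library, and the mean with its SD as a black line and bars (n = 3). FDFT1 and SREBF2 form 4 separate bands, SQLE separates by shRNA, and EBP is low only in SMARCA4 shRNA cells in DMSO, at 48.3 to 52.0 CPM.

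Among the sensing and regulatory genes, INSIG1 and SREBF2 rose in all 4 comparisons, and INSIG2 and SCAP passed in none. SREBF2 (ENSG00000198911), the gene of SREBP2 itself, had 158, 164 and 159 CPM in knockdown cells under drug, 144, 136 and 137 CPM in control cells under drug, 122, 120.1 and 122 CPM in knockdown cells in DMSO, and 99.1, 95.8 and 105 CPM in control cells in DMSO. The 4 groups did not overlap. SREBF2 rose with the drugs by a log2 value of 0.40 (SE 0.06, adjusted p = 2.68e-05) in knockdown cells and 0.48 (SE 0.06, adjusted p = 2.23e-06) in control cells. With knockdown it rose by 0.20 (SE 0.06, adjusted p = 0.00555) under drug and 0.28 (SE 0.06, adjusted p = 0.000257) in DMSO.

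INSIG1 (ENSG00000186480), an SREBP2 target that retains SCAP in the endoplasmic reticulum, had 111, 107 and 101 CPM in knockdown cells under drug, 79.2, 77.8 and 78.7 CPM in control cells under drug, 83.1, 78.5 and 82.9 CPM in knockdown cells in DMSO, and 65.9, 63.3 and 64.9 CPM in control cells in DMSO. The groups with 1 condition each overlapped, between the other 2. Its knockdown effect was 0.44 (SE 0.06, adjusted p = 1.35e-06) under drug and 0.33 (SE 0.06, adjusted p = 7.94e-05) in DMSO, and its drug effect was 0.38 (SE 0.06, adjusted p = 0.000132) in knockdown cells and 0.28 (SE 0.06, adjusted p = 0.0159) in control cells. The last call was lost without any 1 of the 3 control libraries under drug or replicate 2 or 3 of the control cells in DMSO (0.26 to 0.28), with adjusted p between 0.0121 and 0.104 over the 22 alternatives. One of these libraries, replicate 1 of the control cells under drug, was assigned to its group by elimination of column names, and without it the adjusted p was 0.0937.

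SCAP, the escort of SREBP2, averaged 155 to 174 CPM per group, and its log2 fold changes lay between -0.11 (drug in control cells, adjusted p = 0.499) and 0.07 (knockdown under drug, adjusted p = 0.343). INSIG2, the paralog of INSIG1, averaged 5.63 to 6.66 CPM and had values of 0.19 (SE 0.18) and 0.21 (SE 0.17) for knockdown under drug and in DMSO and of -0.03 and -0.01 for the drugs in knockdown and control cells.

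None of the 5 genes of intracellular transport, storage and sterol binding passed in any comparison, by edgeR, DESeq2 or limma-voom. At an unadjusted p under 0.05 there were 1 for knockdown under drug, 2 for knockdown in DMSO, 1 for the drugs in knockdown cells and 0 in control cells. Of the 12602 tested genes, 5092, 5074, 1316 and 1266 had such a p in these comparisons, so the counts are no result about the 5 genes. NPC1, which exports cholesterol from lysosomes, had 10.5, 8.36 and 10.5 CPM in knockdown cells under drug, 8.28, 6.59 and 7.86 CPM in control cells under drug, 10.5, 8.47 and 9.09 CPM in knockdown cells in DMSO, and 8, 6.64 and 6.57 CPM in control cells in DMSO. The knockdown libraries lay above the control libraries within each treatment. Its knockdown effect was 0.37 (SE 0.16, adjusted p = 0.085) under drug and 0.39 (SE 0.15, adjusted p = 0.0535) in DMSO, just outside the threshold. It passed in DMSO without replicate 2 of the knockdown cells in DMSO, replicate 1 of the control cells in DMSO or replicate 2 of the knockdown cells under drug (0.39 to 0.51). It also passed there with all 12 libraries under library totals (adjusted p = 0.0422), the 5 CPM filter (adjusted p = 0.0436) and the replicate number as a block (adjusted p = 0.0413), and over the 22 alternatives adjusted p lay between 0.0345 and 0.165. Under drug it passed with library totals (0.45, adjusted p = 0.0325) and without replicate 2 of the knockdown cells under drug (0.47, adjusted p = 0.0434), over a range of 0.0325 to 0.268. NPC2, the lysosomal partner of NPC1, averaged 46.3 to 50.7 CPM per group with fold changes between -0.09 and 0.08. SOAT1, which esterifies cholesterol for storage, had -0.15 (SE 0.09, adjusted p = 0.205) under drug and -0.18 (SE 0.08, adjusted p = 0.0978) in DMSO for knockdown. TMEM97, a sterol-binding membrane protein that associates with NPC1, had 0.21 (SE 0.09, adjusted p = 0.347) for the drugs in knockdown cells and between -0.09 and 0.07 elsewhere. STARD4, a cytosolic sterol carrier, averaged 2.29 to 3.44 CPM, and its knockdown value in DMSO was 0.48 (SE 0.25, adjusted p = 0.142).

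The 3 efflux genes did not move as a group. ABCG1 (ENSG00000160179), a transporter that exports cholesterol to lipoproteins, had 36.5, 33.7 and 33.6 CPM in knockdown cells under drug, 15.3, 14.9 and 17.3 CPM in control cells under drug, 44.3, 40.4 and 37.9 CPM in knockdown cells in DMSO, and 15.8, 15.2 and 15.6 CPM in control cells in DMSO. Every knockdown library was above every control library by a wide margin. ABCG1 rose 2.18-fold with knockdown under drug (log2 1.13, SE 0.10, adjusted p = 1.14e-10) and 2.60-fold in DMSO (log2 1.38, SE 0.09, adjusted p = 2.25e-13), and both calls held in all 22 alternatives. Its drug effect was -0.23 (SE 0.08, adjusted p = 0.249) in knockdown cells, whose libraries did not overlap, and 0.02 (SE 0.11, adjusted p = 0.979) in control cells.

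ABCA1 (ENSG00000165029), which loads cholesterol onto apolipoprotein acceptors, had 24.2, 18.02 and 20.5 CPM in knockdown cells under drug, 21.9, 23.5 and 19.9 CPM in control cells under drug, 26.8, 24.4 and 22.3 CPM in knockdown cells in DMSO, and 24.3, 23.6 and 20.1 CPM in control cells in DMSO. MYLIP (ENSG00000007944) had 17.98, 19.2 and 21.7 CPM in knockdown cells under drug, 19.6, 20.02 and 17.7 CPM in control cells under drug, 20.7, 22.4 and 24.8 CPM in knockdown cells in DMSO, and 20.3, 20.8 and 20.4 CPM in control cells in DMSO. In both genes the knockdown groups overlapped their control groups. The knockdown effect on ABCA1 was -0.06 under drug (95% interval -0.30 to 0.17, adjusted p = 0.727) and 0.10 in DMSO (-0.12 to 0.31, adjusted p = 0.544). For MYLIP it was 0.05 under drug (-0.18 to 0.27, adjusted p = 0.79) and 0.16 in DMSO (-0.04 to 0.36, adjusted p = 0.235). The upper ends of these intervals lie below the lower ends for ABCG1, 0.92 under drug and 1.19 in DMSO. With the drugs in knockdown cells, ABCA1 had -0.22 (SE 0.11, adjusted p = 0.491) and MYLIP -0.22 (SE 0.10, adjusted p = 0.441), so all 3 efflux genes had negative values there without passing. In control cells the drug values were -0.06 for ABCA1 and -0.10 for MYLIP. Summed, the 3 genes had 75.1 ± 3.9 CPM in knockdown cells under drug, 56.7 ± 1.76 CPM in control cells under drug, 88.0 ± 3.43 CPM in knockdown cells in DMSO and 58.7 ± 2.28 CPM in control cells in DMSO (SD, n = 3 each).

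**Figure D5:**
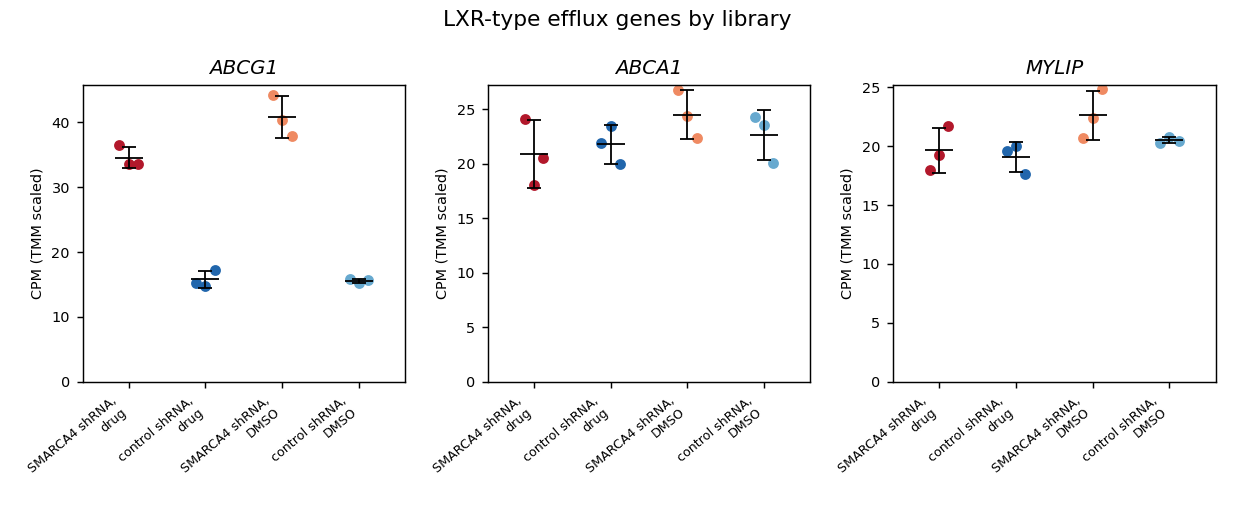
Level in CPM (y axis, from 0) of ABCG1, ABCA1 and MYLIP in the 4 groups (x axis), with 1 point per library, and the mean with its SD as a black line and bars (n = 3). ABCG1 lies at 33.6 to 44.3 CPM in the SMARCA4 shRNA libraries and at 14.9 to 17.3 CPM in the control shRNA libraries, while ABCA1 and MYLIP overlap between them.

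The synthesis and efflux sides can be set side by side. Of the 27 genes outside the efflux group, 11 rose and 0 fell with knockdown under drug, where 14.8% of all tested genes rose and 16.3% fell, and 10 rose and 2 fell with knockdown in DMSO, where 15.1% rose and 16.2% fell. With the drugs, 9 rose and 0 fell in knockdown cells, where 0.738% of all tested genes rose and 0.548% fell. In control cells 4 rose and 0 fell with the drugs, where 0.738% rose and 0.555% fell. Median log2 fold changes of the 27 were 0.194 and 0.228 for knockdown under drug and in DMSO, beside 0.002 and 0.004 over all tested genes, and 0.207 and 0.116 for the drugs in knockdown and control cells, beside 0.001 and 0.002. ABCG1 was the 1 efflux gene among those that rose with knockdown, and no efflux gene passed with the drugs by edgeR, DESeq2 or limma-voom. At an unadjusted p under 0.05, 2 efflux genes were lower in knockdown cells and 0 in control cells, where 647 and 596 of the 12602 tested genes were.

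Genes around these pathways were read from 4 further lists, and calls in them stand against the 14.8% of all tested genes that rose and 16.3% that fell with knockdown under drug, and the 15.1% and 16.2% in DMSO. With the drugs, 0.738% of all tested genes rose and 0.548% fell in knockdown cells, and 0.738% and 0.555% in control cells. Of 13 genes of SREBP processing and sterol control in the endoplasmic reticulum, ERLIN1, whose product helps degrade sterol-regulated proteins, rose with knockdown under drug (0.38, SE 0.08, adjusted p = 0.000257) and in DMSO (0.34, SE 0.08, adjusted p = 0.000733). NFYA, a subunit of NF-Y, rose in DMSO (0.56, SE 0.13, adjusted p = 0.000762), and LBR fell by 0.18 under drug (SE 0.06, adjusted p = 0.0212). None of the 13 passed with the drugs, by edgeR, DESeq2 or limma-voom. At an unadjusted p under 0.05 there were 3 in knockdown cells and 2 in control cells, where 1316 and 1266 of the 12602 tested genes had one. Of 7 tested genes of LXR and its other targets, the LXR partner RXRA fell by 0.53 (SE 0.09) with knockdown both under drug (adjusted p = 1.66e-05) and in DMSO (adjusted p = 9.97e-06), and RXRB rose by 0.28 in DMSO (SE 0.09, adjusted p = 0.0139). None of the 7 passed with the drugs by any of the 3 tools. None had an unadjusted p under 0.05 in knockdown or control cells, where 1316 and 1266 of the 12602 tested genes had one. Few calls would be seen in any list of this size, so these counts are no result about the 7 genes.

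Of 10 genes of other uptake and intracellular sterol transport that were tested and are reported here, 1 rose and 3 fell with knockdown under drug, where 14.8% of all tested genes rose and 16.3% fell, and 1 rose and 2 fell in DMSO, where 15.1% rose and 16.2% fell. These counts are near the shares over all genes and are no result about the list. LRP8, a lipoprotein receptor, averaged 29.8 CPM in knockdown cells under drug, against 50.2 CPM in control cells under drug, and 29.4 CPM in knockdown cells in DMSO, against 45 CPM in control cells in DMSO. It fell by 0.75 on the log2 scale under drug (SE 0.09, adjusted p = 4.43e-08) and by 0.61 in DMSO (SE 0.08, adjusted p = 7.89e-07). GRAMD1A, a sterol carrier at membrane contacts, fell by 0.38 under drug and by 0.22 in DMSO. OSBPL9 fell by 0.19 under drug, LIPA, the lysosomal acid lipase, rose by 0.43 under drug, and STARD3, an endosomal sterol carrier, rose by 0.26 in DMSO. With the drugs, 0 of the 10 passed by edgeR, DESeq2 or limma-voom. At an unadjusted p under 0.05, 2 in knockdown cells and 4 in control cells were higher, where 669 and 670 of the 12602 tested genes were.

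Among 9 tested genes that use isoprenoids outside sterols, 1 rose and 1 fell with knockdown under drug, and 0 rose and 2 fell in DMSO, again near the shares over all tested genes (14.8% higher and 16.3% lower under drug, 15.1% and 16.2% in DMSO). PDSS1, which builds the ubiquinone side chain, fell by 0.93 under drug (SE 0.17, adjusted p = 0.000101), and COQ2, which attaches it, rose by 0.26 (SE 0.09, adjusted p = 0.0196). RABGGTA and RABGGTB, the subunits of Rab geranylgeranyl transferase, fell by 0.40 (SE 0.15, adjusted p = 0.0427) and by 0.34 (SE 0.11, adjusted p = 0.0217) in DMSO. None of the 9 passed with the drugs by any of the 3 tools. An unadjusted p under 0.05 was seen for 0 in knockdown cells and 1 in control cells, where 1316 and 1266 of the 12602 tested genes had one.

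Whether the drug effect differed between knockdown and control cells was tested by the interaction, in which the log2 drug effect in control cells is subtracted from the one in knockdown cells. None of the 30 genes passed, where 0.0238% of all tested genes did, and DESeq2 and limma-voom also called 0. EBP alone of the 30 had an unadjusted p under 0.05, where 674 of the 12602 tested genes did, so this count is no result about the genes. Its interaction was 0.33 on the log2 scale (95% interval 0.13 to 0.53, adjusted p = 0.569). DHCR7 had -0.37 (-0.77 to 0.02, adjusted p = 0.922) and ABCG1 -0.25 (-0.54 to 0.03, adjusted p = 0.922). MVK had 0.21 (-0.02 to 0.45) and HMGCS1 0.23 (-0.08 to 0.54). FDFT1 had 0.01 (-0.19 to 0.20), SREBF2 -0.08 (-0.24 to 0.09) and INSIG1 0.10 (-0.07 to 0.28). Genes that passed with the drugs in knockdown cells alone are therefore not shown to differ from control cells. For MVK, SQLE and EBP the intervals reached 0.45, 0.40 and 0.53, beyond their drug effects of 0.42, 0.36 and 0.38 in knockdown cells. For HMGCS1 and LSS they reached 0.54 and 0.37, short of drug effects of 0.63 and 0.49 there. DHCR7, which passed in both, had an interval reaching -0.77, beside drug effects of 0.50 in knockdown and 0.88 in control cells.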

How the data were processed

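The authors deposited gene counts, whole numbers per gene and library with no normalization, for 12 libraries. Per the labels, libraries were made with a 3′ mRNA kit (Lexogen QuantSeq), so counts do not depend on gene length. Per the submitters' processing notes, bcl2fastq 2.17.1.14, HISAT2, HTSeq and build hg19 were used, and the sources used here give no other settings. One column, labelled only with the control shRNA and replicate 1, was taken as control under drug replicate 1, the 1 sample no other column named. The 30 genes, their roles and the neighbouring lists were chosen with earlier results of these data known, all 30 are accounted for, and per-library values are given for genes past the threshold in at least 1 comparison and for the efflux genes. Some genes of the pathway and of the neighbouring lists are not reported here.

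Genes were filtered with filterByExpr (minimum count 10, minimum total 15; 1218 removed), scaled by TMM and fitted in edgeR 4.0.16 (R 4.3.3) with 1 coefficient per group over all 12 libraries. Quasi-likelihood F tests, two-sided, gave 5 comparisons, adjusted by Benjamini-Hochberg over 12602 genes at a threshold of 0.05, and "rose" and "fell" mark genes past it. The approximate SE was obtained from each log2 fold change and its F statistic, and the intervals from that SE. The biological coefficient of variation was 5.69%, with 8 residual degrees of freedom per gene and 22.46 prior degrees of freedom drawn from all genes. The procedure was tested on simulated data. Alternatives were DESeq2 1.42.0 (size factors, and its Wald test), limma-voom (limma 3.58.1), library totals, other filters, fits of the groups compared alone, the replicate number as a block, ribosomal rows taken out, the deepest library thinned, and leaving out each library. Promoter windows came from RefSeq (GRCh38.p14) and overlaps at 3′ ends from GENCODE 29, matched by identifier or symbol. These are of another build than the authors' counts, and no position was carried between builds.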

Additional observations from a re-analysis of the deposited data

How the results depend on the processing

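Of 150 pairs of a gene and a comparison, 38 passed, 27 of them under all 22 alternatives and 11 not under at least 1, as given with each gene. The shares of all tested genes that passed are given with each comparison above. Another 7 passed under at least 1 alternative only, and no pair that passed changed sign; of the 105 that never passed, 41 changed sign somewhere. Leaving out each library gave 10 to 12 genes higher for knockdown under drug, 9 to 12 higher and 1 to 2 lower for knockdown in DMSO, 6 to 9 higher for the drugs in knockdown cells and 3 to 4 in control cells. Other alternatives gave 9 to 16, 10 to 12, 7 to 10 and 4 to 4 higher for these comparisons, with the 16 from library totals, which moved the median of all genes by 0.081. Without control under drug replicate 1, the library assigned by elimination, 11 genes rose with knockdown under drug and 3 with the drugs in control cells. Over all genes, leaving out each library gave 1626 to 1961 higher and 1665 to 2035 lower for knockdown under drug (1860 and 2059 with all). For knockdown in DMSO it gave 1618 to 1989 higher and 1600 to 2118 lower (1899 and 2041 with all). It gave 54 to 100 higher and 45 to 82 lower for the drugs in knockdown cells (93 and 69 with all), and 59 to 102 higher and 42 to 81 lower in control cells (93 and 70 with all). For the drugs, the lowest counts came without replicates 1 or 3 of the knockdown cells in DMSO or under drug (54 to 61 higher), without replicates 1 or 2 of the control cells in DMSO (60 and 59 higher), and without control under drug replicate 1 (42 lower). For the interaction (1 higher and 2 lower of all genes), leaving out each library gave 0 to 1 higher and 1 to 2 lower. Library totals gave 2 higher and 1 lower, the 5 CPM filter 0 and 1, ribosomal rows taken out 0 and 0, DESeq2 2 higher, and thinning the deepest library 0 higher; the cause was not tested. Same-numbered libraries of different groups had residual correlations of -0.116 to 0.0821 over 18 pairs, against -0.0944 to 0.0931 over 36 pairs with different numbers. Of 36 best matches in another group, 14 had the same number. No signal shared by number was seen, which cannot show whether same-numbered libraries were handled together. With the replicate block, 11, 12, 8 and 4 genes rose in the 4 comparisons in the order above, and the interaction over all genes had 0 higher and 2 lower. Depth limits ACAT2 most, at 4 to 20 counts per library.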
